A study of Mus musculus with 24 samples.

Results

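Hippocampal RNA of eIF2α conditional knock-in (cKI) mice was set against that of control mice 1 h after fear conditioning, in 6 of the series' 24 libraries. The 6 are whole-lysate inputs, 3 per genotype and 1 mouse each, and therefore hold RNA of every hippocampal cell type. Genes with a level of at least 1 CPM, the count scaled to the library total, in at least 3 of the 6 libraries were kept, which left 14471 of the 51733 genes in the table. The whole series has 12 mice, and each gave an input and a RiboTag pulldown, the RNA bound to tagged ribosomes. All were C57BL/6 males of 2 to 3 months. The cKI mice carried CaMKIIα-Cre and were homozygous for eIF2α with alanine in place of its phosphorylated serine (A/A), with a floxed transgene of normal eIF2α (fTg+) that Cre removes. Control mice carried CaMKIIα-Cre and are labelled Standard, and whether they held the floxed transgene is not given in the sources used here. Pulldowns were made in both genotypes with an antibody to the HA tag. The CaMKIIα promoter is active mainly in excitatory neurons of the forebrain, so other cells of a cKI hippocampus keep the transgene. Conditioning joined a sound to a shock of the feet, and the strength of the training given to these mice is not stated.

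eIF2α is a subunit of the factor that brings the initiator tRNA to the ribosome. Its phosphorylation slows general translation and lets a few mRNAs with upstream open reading frames, among them Atf4, be translated more. ATF4 is a transcription factor that turns on genes of amino acid uptake and synthesis, redox balance and stress. In the hippocampus, phosphorylation of eIF2α is known as a brake on the formation of lasting memory.

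All 3 cKI libraries were sequenced in lane 4 and all 3 control libraries in lane 5, per the labels, so that lane and genotype cannot be told apart in these 6 libraries. The libraries held 30213492 to 32234011 counts in cKI and 28810676 to 34726721 counts in control, and genes of the mitochondrial genome took 2.18 to 2.26% in cKI and 2.19 to 2.44% in control. Markers of the hippocampus were present. Prox1 of dentate granule cells was at 157 to 160 CPM in cKI and 128 to 151 CPM in control, and Wfs1 of CA1 at 158 to 178 CPM in cKI and 159 to 179 CPM in control. Drd2 of the striatum was at 2.80 to 3.53 CPM in cKI and 2.56 to 4.07 CPM in control. Prox1, Wfs1 and Drd2 were picked for this check after their values were seen. Choroid plexus and ependymal markers varied from mouse to mouse in both groups, with summed levels of 95.7, 292 and 362 CPM in cKI and 466, 77.0 and 62.5 CPM in control.

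Few genes differed between the genotypes, and most of those that did were lower in cKI. With the quasi-likelihood test of edgeR and Benjamini-Hochberg adjustment over all 14471 genes, 41 (0.283%) passed an adjusted p of 0.05. Of these, 11 were higher in cKI (0.076%) and 30 were lower (0.207%). The changes were small. The median log2 fold change was 0.66 among the genes that rose and -0.38 among those that fell, and 6 of the 41 reached a size of 1. The 2 groups of 3 mice did not overlap for any of the 41 genes, a pattern seen in 24.6% of all genes tested. Without adjustment, 603 genes were higher (4.17%) and 761 lower (5.26%) at a p under 0.05.

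The number of calls depended on which libraries entered the fit, which used all 12 inputs to estimate the spread. Fitted on the 6 conditioned libraries alone, 221 genes were higher and 262 lower (3.34% of those tested in all, 1.53% and 1.81% by direction), and the 41 were among them. Naive control replicate 2 takes no part in the contrast and stood apart in some gene lists, picked here after their values were seen. Its cytosolic ribosomal protein genes summed to 4242 CPM, against 3425 and 3376 CPM in naive control replicates 1 and 3. Its synaptic plasticity genes summed to 22508 CPM, against 25207 and 26421 CPM. The part of this library in the spread was not tested. Without naive control replicate 2, the counts were 85 and 135. Without cKI replicate 1, 2 or 3 at 1 h they were 4 and 1, 2 and 1, and 2 and 1. Without control replicates 2 or 3 at 1 h they were 5 and 7, and 6 and 7, and without naive cKI replicate 1 or naive control replicate 1 they were 9 and 14, and 7 and 16. Gm10073, Hif3a and Etnppl were the only calls that held in each of the 12 omissions of 1 library. The other 38 lost theirs in 2 to 11 omissions, with a highest edgeR adjusted p of 0.084 to 0.268 per gene. Each of the 41 kept its sign in all 12. Lane differed within the naive controls alone, with replicate 3 in lane 5 and replicates 1 and 2 in lane 4. A fit with lane as a covariate thus takes the lane effect from 1 library against 2. It cannot tell lane apart from differences between those mice. With lane as a covariate, estimated from the naive controls alone, 1 gene was higher, Diaph1 (edgeR adjusted p 0.0024, against 0.962 without the covariate), and 0 were lower, so that none of the 41 was called. The formin gene Diaph1 was picked after its values were seen. In that fit all 41 kept their sign, and 37 of them had an unadjusted p under 0.05 in the same direction, against 11.8% of all genes. The fit holds the same libraries that chose the 41, so these counts are no separate support for the calls.

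The log2 fold changes by gene list are plotted here for the groups described below. Members and lists were chosen with earlier results of these data known. Their counts, medians and sums therefore describe these data and are no separate test. Of all genes tested, 0.076% were called higher and 0.207% lower, and 4.17% and 5.26% were so at an unadjusted p under 0.05. Of the 14471 genes, 7123 lay below 0.

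**Figure D1:**
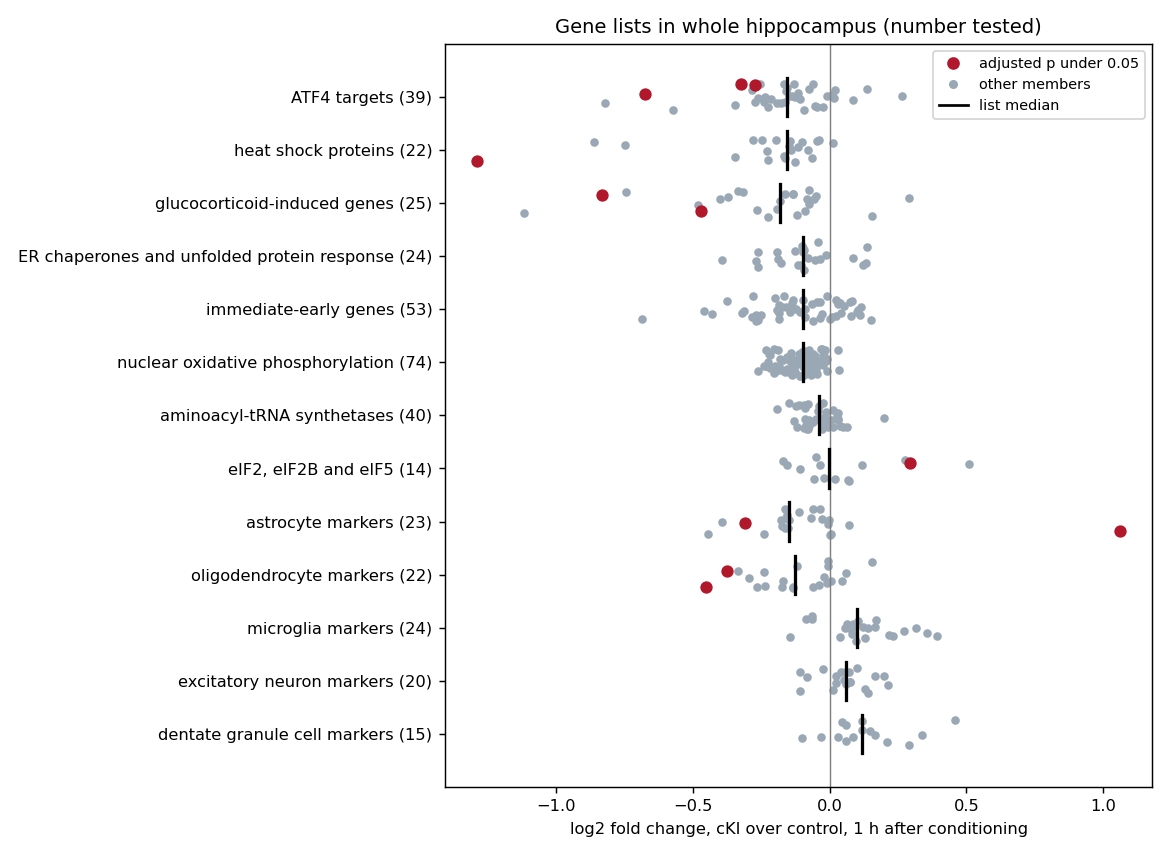
Each point is a gene, placed by its log2 fold change of cKI over control 1 h after conditioning (x axis) and by gene list (rows, with the number of genes tested); red points passed an edgeR adjusted p of 0.05 and black bars are list medians. Medians of the ATF4 target, heat shock and glucocorticoid lists lie at -0.15, -0.16 and -0.18, and those of microglia and dentate granule cell markers at 0.10 and 0.12.

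The targeted gene and its partners came first. Eif2s1, which encodes eIF2α, was at 43.4, 43.5 and 43.4 CPM in cKI and 36.3, 36.2 and 35.3 CPM in control. Every cKI mouse lay above every control mouse, as in 13% of all genes tested. The difference of 0.27 on the log2 scale (SE 0.06) missed the threshold (edgeR adjusted p 0.068). Fitted on the 6 libraries alone, its edgeR adjusted p was 0.0061. The count adds mutant, normal and transgene copies and does not show which of them a mouse carried. Eif5, which triggers GTP hydrolysis by eIF2 at the start codon, was at 278, 287 and 289 CPM in cKI and 223, 233 and 242 CPM in control. It rose in cKI by 0.29 on the log2 scale (SE 0.04, edgeR adjusted p 0.018), a call lost in 5 of 12 omissions. Of 14 genes of eIF2, its exchange factor eIF2B and eIF5, Eif5 was the only edgeR call, where 0.076% of all genes were called higher. DESeq2 called 3 of the 14 higher, and 56 of 14465 genes in all. The β subunit gene Eif2s2 was at 32.6, 35.0 and 31.1 CPM in cKI and 36.3, 35.9 and 38.8 CPM in control (log2 -0.17, edgeR adjusted p 0.48), and was picked after its values were seen. Of 13 genes for eIF2α kinases and phosphatase subunits 0 passed by edgeR or DESeq2, 0 had an unadjusted p under 0.05, and their median was 0.01. Rpl22, the gene of the tagged protein, was at 242, 191 and 208 CPM in cKI and 218, 172 and 189 CPM in control, with overlapping groups (log2 0.15, SE 0.17).

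Transcripts of Atf4 and of 2 amino acid transporters in its pathway fell in cKI. Atf4 (ENSMUST00000109605) was at 98.6, 99.9 and 96.5 CPM in cKI and 113, 133 and 123 CPM in control. The control mice lay above all cKI mice and were more spread out. Atf4 fell by 0.32 on the log2 scale (SE 0.06, edgeR adjusted p 0.044). Slc7a3, a transporter of cationic amino acids, was at 4.92, 4.87 and 4.58 CPM in cKI and 7.55, 9.05 and 6.38 CPM in control, and fell by 0.68 (SE 0.13, edgeR adjusted p 0.044). Slc7a5, the large chain of a transporter of large neutral amino acids, was at 79.4, 76.5 and 75.2 CPM in cKI and 98.6, 89.2 and 91.6 CPM in control. It fell by 0.27 (SE 0.05, edgeR adjusted p 0.048). Neither group overlapped the other in any of the 3 genes, a pattern seen in 24.6% of all genes tested. Each of these calls was lost in 10 of 12 omissions, with edgeR adjusted p up to 0.226 for Atf4, 0.229 for Slc7a3 and 0.255 for Slc7a5.

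The list of ATF4 targets includes Atf4 itself. Across its 39 genes tested, of 43 listed, 0 passed the threshold as higher and 3 as lower, against 0.076% and 0.207% of all genes. These 3 are the Atf4, Slc7a3 and Slc7a5 calls given above. At an unadjusted p under 0.05, 0 were higher and 16 lower, against 4.17% and 5.26% of all genes. Their median log2 fold change was -0.15, with 33 of 39 below 0, where the median of all genes was 0.00. Summed over the list, the cKI libraries held 2021 to 2040 CPM and the control libraries 2210 to 2240 CPM. Sums that did not overlap were common among the lists. They were also seen where 0 members were called, as for glutamate receptors, proteasome subunits and initiation factors outside eIF2. With only the 6 libraries in the fit, 11 members were called lower and 0 higher, against 1.81% and 1.53% of all genes. Asns, the asparagine synthetase gene, was at 84.1, 78.4 and 80.6 CPM in cKI and 92.9, 90.8 and 89.4 CPM in control (log2 -0.17, SE 0.05, edgeR adjusted p 0.205). Ddit3, which encodes the stress factor CHOP, showed overlapping groups, at 19.1, 20.6 and 19.0 CPM in cKI and 20.7, 19.7 and 18.7 CPM in control (log2 -0.01, SE 0.09). The highest member was Stc2, a secreted glycoprotein gene, at 0.26 (SE 0.19), and Slc7a11, the cystine transporter gene, lay at 0.14 (SE 0.08). Stc2 and Slc7a11 were picked after their values were seen.

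**Figure D2:**
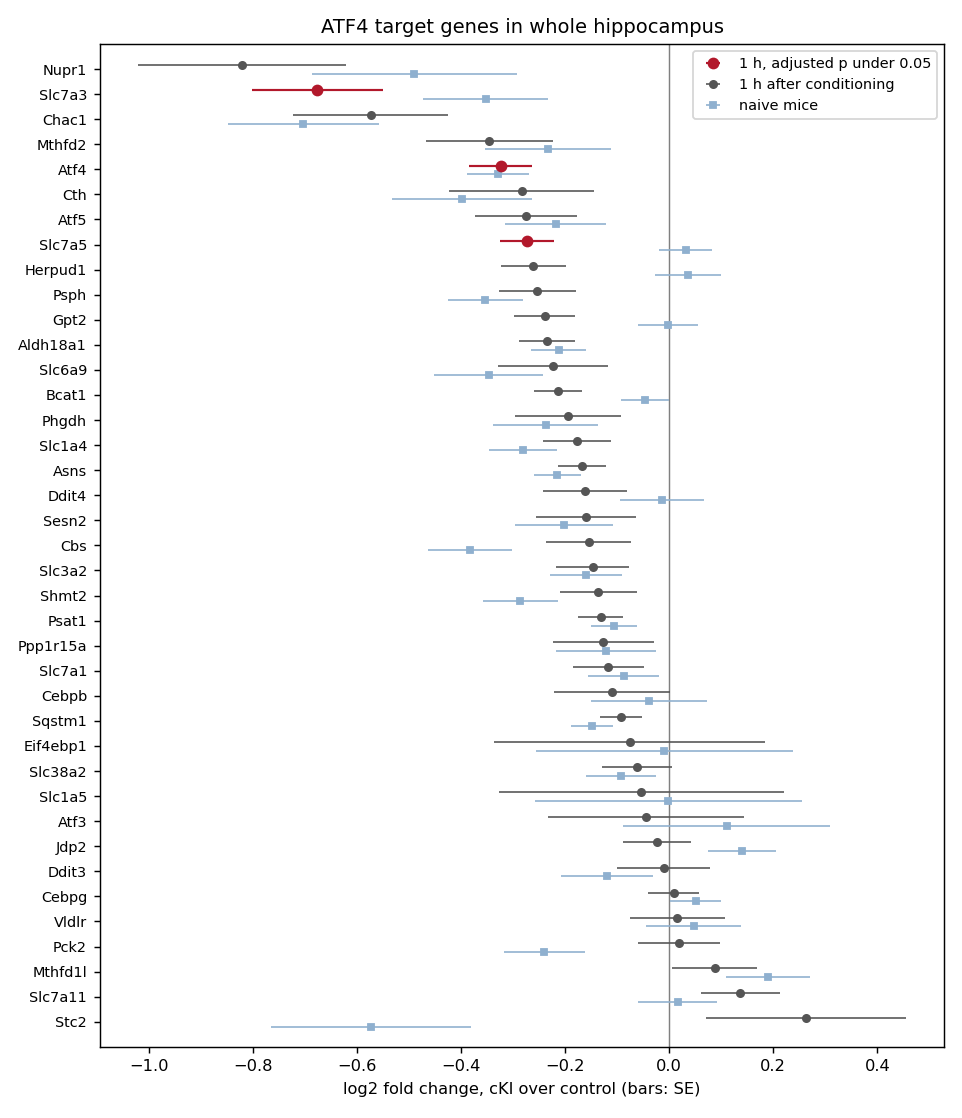
Log2 fold changes of cKI over control (x axis, bars are SE) for the 39 ATF4 target genes tested (rows), in mice 1 h after conditioning (circles, red where edgeR adjusted p was under 0.05) and in naive mice (squares). At 1 h, 33 of 39 points lie below 0, and Slc7a3, Atf4 and Slc7a5 are red. The list includes Atf4 itself.

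ATF4 binds, as a dimer with C/EBP proteins, to a composite element searched here as TGATGNAAN on both strands of the 250 bases before each gene start. Promoter sequences are from RefSeq, build GRCm38.p6, and 34 of the 39 tested targets had one. The element was found in 9 of the 34, and in 3.89% of all 27025 genes with a promoter (3.44% of 32851 windows, of which a gene can have several). The windows shown are those of the element-holding targets that had an unadjusted p under 0.05 at 1 h, picked after their values were seen. Each is written 5′ to 3′ along its gene, with the element in capitals, on the gene's strand for Asns and on the opposite strand for the others.
Asns, chr6:7693210-7693257, minus strand: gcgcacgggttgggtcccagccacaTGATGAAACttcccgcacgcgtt
Chac1, chr2:119351023-119351081, plus strand: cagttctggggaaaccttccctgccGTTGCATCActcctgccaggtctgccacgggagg
Nupr1, chr7:126625548-126625606, minus strand: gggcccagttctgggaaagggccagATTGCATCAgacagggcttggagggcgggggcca
Herpud1, chr8:94386291-94386349, plus strand: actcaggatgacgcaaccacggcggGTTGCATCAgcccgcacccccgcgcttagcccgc

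The first base of the element as printed lay 23 bases before the annotated start in Asns, 194 in Chac1, 111 in Nupr1 and 113 in Herpud1. None of these 4 genes passed the threshold over all genes. Chac1, which degrades glutathione, was at 4.62, 4.06 and 3.89 CPM in cKI and 7.58, 6.05 and 5.13 CPM in control (log2 -0.57, SE 0.15, edgeR adjusted p 0.169). Nupr1, a stress-induced nuclear protein gene, was at 1.66, 1.81 and 2.52 CPM in cKI and 3.37, 4.20 and 3.05 CPM in control (log2 -0.82, SE 0.20, edgeR adjusted p 0.132). Herpud1, of protein degradation at the endoplasmic reticulum, was at 53.2, 53.8 and 51.8 CPM in cKI and 57.2, 68.8 and 64.3 CPM in control (log2 -0.26, SE 0.06, edgeR adjusted p 0.132). Over the list, the 9 targets with the element had a median of -0.04 with 6 below 0, and the 25 without a match in the window had a median of -0.15 with 22 below 0. No match was found in the window of Atf4, and Slc7a3 and Slc7a5 had no entry in the promoter table.

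Heat shock genes lay lower in cKI, with 1 of 22 past the threshold, where 0.207% of all genes were called lower. Hspb1, the small heat shock protein HSP27, was at 1.53, 1.97 and 1.62 CPM in cKI and 3.13, 5.13 and 4.23 CPM in control. It fell by 1.29 on the log2 scale (SE 0.21, edgeR adjusted p 0.029), a call lost in 5 of 12 omissions. At an unadjusted p under 0.05, 13 of the 22 were lower and 0 higher, against 5.26% and 4.17% of all genes. Of the 22, 21 lay below 0, with a median of -0.16. Dnajb1, a co-chaperone of HSP70, was at 67.1, 67.9 and 68.5 CPM in cKI and 73.0, 103 and 83.1 CPM in control (log2 -0.35, edgeR adjusted p 0.166). Hsp90ab1, the constitutive HSP90, was at 1783, 1775 and 1759 CPM in cKI and 1883, 2022 and 1969 CPM in control (log2 -0.14, edgeR adjusted p 0.21). In both genes the highest control was replicate 2. Chaperones of the endoplasmic reticulum had 0 of 24 called by edgeR and 1 lower by DESeq2, which called 112 of 14465 genes lower. Of the 24, 8 were lower and 0 higher at an unadjusted p under 0.05, with a median of -0.10. Among them Xbp1, a transcription factor of the unfolded protein response, was at 91.0, 89.5 and 88.7 CPM in cKI and 96.2, 106 and 102 CPM in control (log2 -0.18, edgeR adjusted p 0.232).

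Genes induced by glucocorticoids, the stress hormones, lay lower in cKI, and Hif3a and Tsc22d3 passed the threshold. Hif3a (ENSMUST00000108492), which encodes a subunit of hypoxia-inducible factors, was at 9.48, 9.37 and 8.31 CPM in cKI and 16.3, 14.9 and 17.1 CPM in control. It fell by 0.83 on the log2 scale (SE 0.08, edgeR adjusted p 0.0011). Tsc22d3, the glucocorticoid-induced leucine zipper, was at 36.8, 34.9 and 33.8 CPM in cKI and 47.9, 49.5 and 48.6 CPM in control. It fell by 0.47 (SE 0.07, edgeR adjusted p 0.021), and this call was lost in 5 of 12 omissions. Of 25 genes in the list, 23 lay below 0 with a median of -0.18. At an unadjusted p under 0.05, 9 were lower and 1 higher, against 5.26% and 4.17% of all genes. Map3k6, a stress kinase gene, was at 2.00, 1.81 and 1.74 CPM in cKI and 4.87, 3.58 and 3.63 CPM in control (log2 -1.12, SE 0.30, edgeR adjusted p 0.203). The summed list was at 1620 to 1629 CPM in cKI and 1724 to 1792 CPM in control. In naive mice of the same study the order of the sums was the other way, with 1544 to 1645 CPM in cKI and 1461 to 1508 CPM in control, and the list median was 0.11. That difference between 1 h and naive mice was tested gene by gene alone, and it passed for Hif3a.

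Immediate-early genes, which neurons switch on within minutes of activity, gave no call among 53. Their median was -0.10, with 7 lower and 1 higher at an unadjusted p under 0.05, against 5.26% and 4.17% of all genes. By DESeq2 and by edgeR on the 6 libraries alone, 0 of the 53 passed as well. Control mouse 2 stood above the others in the best known of them. Arc, a regulator of synaptic strength, was at 166, 172 and 164 CPM in cKI and 145, 293 and 166 CPM in control. Fos was at 16.5, 18.6 and 15.6 CPM in cKI and 14.6, 30.1 and 15.5 CPM in control. The log2 fold changes were -0.27 (SE 0.24) for Arc and -0.25 (SE 0.29) for Fos, smaller than or near their errors. Npas4, which is specific to activity in neurons, was at 6.68, 7.77 and 7.69 CPM in cKI and 8.52, 15.5 and 11.5 CPM in control. Its groups did not overlap, as in 24.6% of all genes, and its log2 fold change of -0.68 (SE 0.27) did not pass (edgeR adjusted p 0.438).

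Several markers of myelin and astrocytes lay lower in cKI hippocampus. Mobp, Bcas1 and Ntsr2 passed the threshold as lower, and the astrocyte marker Etnppl passed it as higher. In such bulk samples fewer cells of a type and less RNA per cell cannot be told apart. Mobp, of myelin, was at 65.1, 64.0 and 68.9 CPM in cKI and 89.3, 97.7 and 83.7 CPM in control, and fell by 0.45 on the log2 scale (SE 0.06, edgeR adjusted p 0.013). Bcas1, of oligodendrocytes that form myelin, was at 91.9, 96.1 and 98.8 CPM in cKI and 126, 129 and 118 CPM in control, and fell by 0.38 (SE 0.06, edgeR adjusted p 0.018). Omitting 1 library cost Mobp its call in 3 of 12 cases and Bcas1 in 4. Of 22 oligodendrocyte markers 2 were called lower and 0 higher, against 0.207% and 0.076% of all genes. At an unadjusted p under 0.05, 9 were lower and 0 higher, against 5.26% and 4.17%, and the median was -0.13. Mbp, the main myelin protein gene, was at 1604, 1677 and 1663 CPM in cKI and 1893, 2147 and 1898 CPM in control (log2 -0.26, SE 0.06, edgeR adjusted p 0.132). The list summed to 5175 to 5401 CPM in cKI and 5634 to 6510 CPM in control.

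Among 23 astrocyte markers, 1 was called higher, Etnppl at 1.06 on the log2 scale, and 1 lower, Ntsr2. At an unadjusted p under 0.05, 10 were lower and 1 higher, against 5.26% and 4.17% of all genes. Ntsr2, a neurotensin receptor of astrocytes, was at 78.1, 77.6 and 81.3 CPM in cKI and 104, 97.4 and 92.3 CPM in control, and fell by 0.31 (SE 0.05, edgeR adjusted p 0.044). Gfap, the intermediate filament of astrocytes, was at 488, 457 and 500 CPM in cKI and 565, 522 and 546 CPM in control (log2 -0.18, edgeR adjusted p 0.269). Outside the list, Sparc, a matrix protein gene, Sdc4, a heparan sulphate proteoglycan gene, and Atp1b2, a sodium pump subunit gene, fell by 0.36, 0.38 and 0.25. Astrocytes express all of them, and Sparc and Atp1b2 were chosen after their values were seen. Serpina3n, a gene of reactive astrocytes given below and also outside the list, went the other way and rose by 0.57. Sparc was at 103, 101 and 106 CPM in cKI and 128, 132 and 138 CPM in control. The astrocyte list summed to 8210 to 8349 CPM in cKI and 8437 to 8986 CPM in control. The calls of Ntsr2, Sparc, Sdc4 and Atp1b2 were lost in 9, 9, 8 and 10 of 12 omissions.

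Markers of excitatory neurons, dentate granule cells and microglia lay mostly above 0, and those of pyramidal cell layers and inhibitory neurons did not. For the counts that follow, 4.17% of all genes were higher and 5.26% lower at an unadjusted p under 0.05. DESeq2 called 56 of 14465 genes higher and 112 lower. Of 20 excitatory neuron markers 0 were called by edgeR and 1 by DESeq2, 3 were higher at an unadjusted p under 0.05 and 16 lay above 0, with sums of 10583 to 10888 CPM in cKI and 9867 to 10305 CPM in control. Dentate granule cell markers had 0 calls of 15 by edgeR or DESeq2, 4 higher at an unadjusted p under 0.05, a median of 0.12 and sums of 1040 to 1067 CPM in cKI and 944 to 1035 CPM in control. Tdo2, a tryptophan dioxygenase gene of granule cells, was at 8.45, 8.84 and 8.69 CPM in cKI and 6.54, 5.496 and 6.85 CPM in control (log2 0.46, edgeR adjusted p 0.147). Camk2a, whose promoter drives Cre, was at 3159, 3191 and 3140 CPM in cKI and 2879, 2822 and 2913 CPM in control (log2 0.14, SE 0.11, edgeR adjusted p 0.737). Its edgeR adjusted p on the 6 libraries alone was 0.0072. CA1 and CA3 pyramidal markers had 0 calls of 23 by edgeR or DESeq2, 1 higher and 1 lower at an unadjusted p under 0.05, and a median of -0.02. They summed to 1581 to 1633 CPM in cKI and 1636 to 1718 CPM in control, without overlap, which was common among the lists. Inhibitory neuron markers had 0 calls of 29 by edgeR and 1 lower by DESeq2, 6 lower and 1 higher at an unadjusted p under 0.05, and a median of -0.09 with 19 below 0. Their sums overlapped, at 2265 to 2342 CPM in cKI and 2257 to 2453 CPM in control. Gad1 of inhibitory neurons was at 339, 317 and 320 CPM in cKI and 368, 341 and 332 CPM in control (log2 -0.10, edgeR adjusted p 0.605). Microglia markers had 0 calls of 24 by edgeR or DESeq2, 4 higher at an unadjusted p under 0.05 and a median of 0.10, and their sums overlapped, at 787 to 922 CPM in cKI and 735 to 859 CPM in control. The part that these marker levels have in the calls of other genes was not tested.

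**Figure D3:**
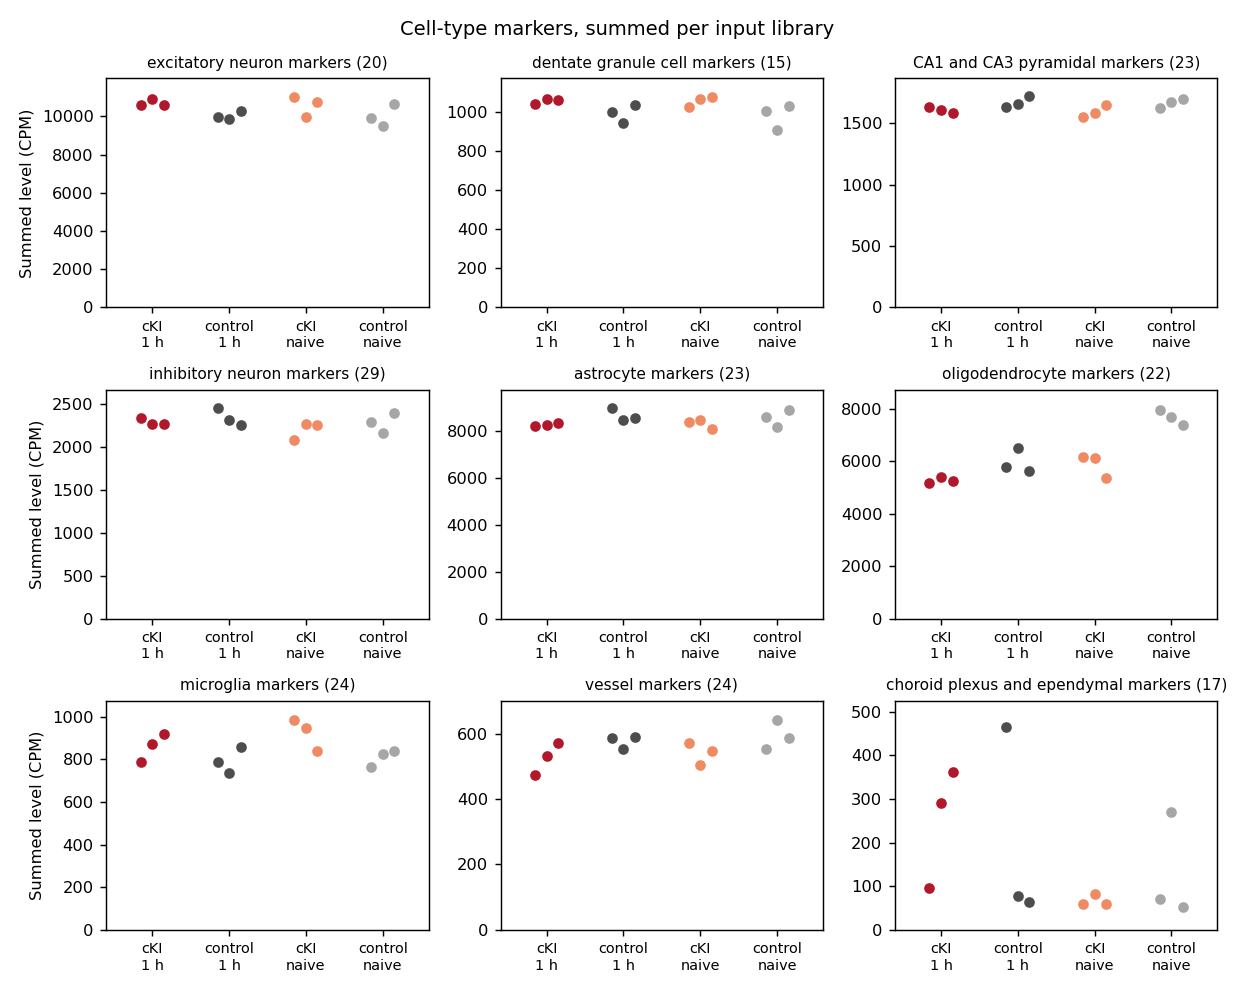
Summed level in CPM (y axis, from 0) of the markers of 9 cell types in each input library, with cKI and control mice 1 h after conditioning and then cKI and control naive mice (x axis); each point is 1 mouse and the number of markers stands in the panel title. Oligodendrocyte sums of the 3 cKI mice at 1 h lie at 5175 to 5401 CPM, below the 5634 to 6510 CPM of controls, while choroid plexus sums vary within both groups.

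Among the genes that rose, Etnppl, Dapp1 and Manba had the smallest unadjusted p after Gm10073. Etnppl (ENSMUST00000072271), an enzyme of phosphoethanolamine breakdown that is also in the astrocyte list, was at 26.3, 22.2 and 21.3 CPM in cKI and 11.1, 11.3 and 10.99 CPM in control. It rose by 1.06 on the log2 scale (SE 0.11, edgeR adjusted p 0.0013). Dapp1, a signalling adaptor that binds phosphoinositides, was at 7.72, 8.24 and 8.06 CPM in cKI and 2.64, 3.95 and 3.86 CPM in control, a rise of 1.19 (SE 0.15, edgeR adjusted p 0.01). Manba, the lysosomal β-mannosidase, was at 10.5, 12.3 and 12.0 CPM in cKI and 7.90, 7.07 and 7.11 CPM in control, a rise of 0.66 (SE 0.09, edgeR adjusted p 0.018). Dapp1 lost its call in 2 of 12 omissions and Manba in 4. In each of these genes every cKI mouse lay above every control mouse, as in 13% of all genes tested.

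These 3 genes stood near each other on chromosome 3, in the gene order of the RefSeq annotation of GRCm38.p6. Manba was 25 measured genes from Etnppl and 10 from Dapp1, and Dapp1 was next to 1110002E22Rik. The last of these was at 3.92, 4.31 and 4.51 CPM in cKI and 1.74, 2.44 and 1.94 CPM in control (log2 1.05, SE 0.18, edgeR adjusted p 0.035), a call lost in 7 of 12 omissions. The stretch from Etnppl to 1110002E22Rik held 36 measured genes. All 4 calls in it were higher, and at an unadjusted p under 0.05, 10 were higher and 2 lower, against 4.17% and 5.26% of all genes. The ends of the stretch were set by called genes, so its counts are partly built in. None of the 4 was called in naive mice. Their naive log2 fold changes were -0.03 for Etnppl, 0.004 for Manba, 0.30 for Dapp1 and 0.25 for 1110002E22Rik (edgeR adjusted p 0.89, 0.98, 0.28 and 0.42). The test of the difference between 1 h and naive mice, given below, passed for Etnppl alone of the 4. On chromosome 5, the stretch from Hspb1 to Ppp1r35 held 41 measured genes and 3 calls, 0 of them higher. There 2 were higher and 8 lower at an unadjusted p under 0.05. Called genes set the ends of this stretch too, so these counts are also partly built in. On chromosome 4, Sh2d5 was 46 measured genes from Paqr7 and 19 from Emc1, and all of these fell. Of the 40 calls placed in the annotation, Dapp1 with 1110002E22Rik and Nyap1 with Ppp1r35 were the only ones within 5 measured genes of another call. Nyap1, an adaptor of phosphoinositide 3-kinase signalling in neurons, and Ppp1r35, a regulatory subunit gene of protein phosphatase 1, both fell, by 0.26 and 0.67. These calls were lost in 8 and 6 of 12 omissions.

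Serpina3n, a protease inhibitor gene of reactive astrocytes, was at 90.3, 89.6 and 95.7 CPM in cKI and 62.3, 56.6 and 67.1 CPM in control (log2 0.57, SE 0.09, edgeR adjusted p 0.023). It has near copies in the mouse genome with which reads may be shared. Hrk, a promoter of apoptosis in neurons, was at 86.9, 89.4 and 87.1 CPM in cKI and 65.7, 73.6 and 72.6 CPM in control, a rise of 0.31 (SE 0.06, edgeR adjusted p 0.044). Coa5, an assembly factor of cytochrome oxidase, and Ino80, the ATPase of a chromatin remodeller, rose by 0.29 and 0.25 (SE 0.05 each, edgeR adjusted p 0.044 each). Serpina3n lost its call in 5 of 12 omissions, Hrk in 10, and Coa5 and Ino80 in 11.

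The pseudogene Gm10073, on chromosome 8 in RefSeq, was close to absent from controls. It is a clone name outside the rule for named genes and was picked after its values were seen. Its raw counts were 161, 132 and 333 in cKI and 1, 0 and 0 in control. The ratio of its counts per total was 636, with a 95% counting interval of 114 to 25171 (exact binomial), which covers counting error only. It passed at an edgeR adjusted p of 0.00018, and it was the only call that reached the CPM minimum in cKI libraries alone. Counts were 182, 186 and 133 in naive cKI inputs and 1, 0 and 0 in naive control inputs. Reads of a pseudogene can be shared with its parent gene, so the source of these counts is uncertain.

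**Figure D4:**
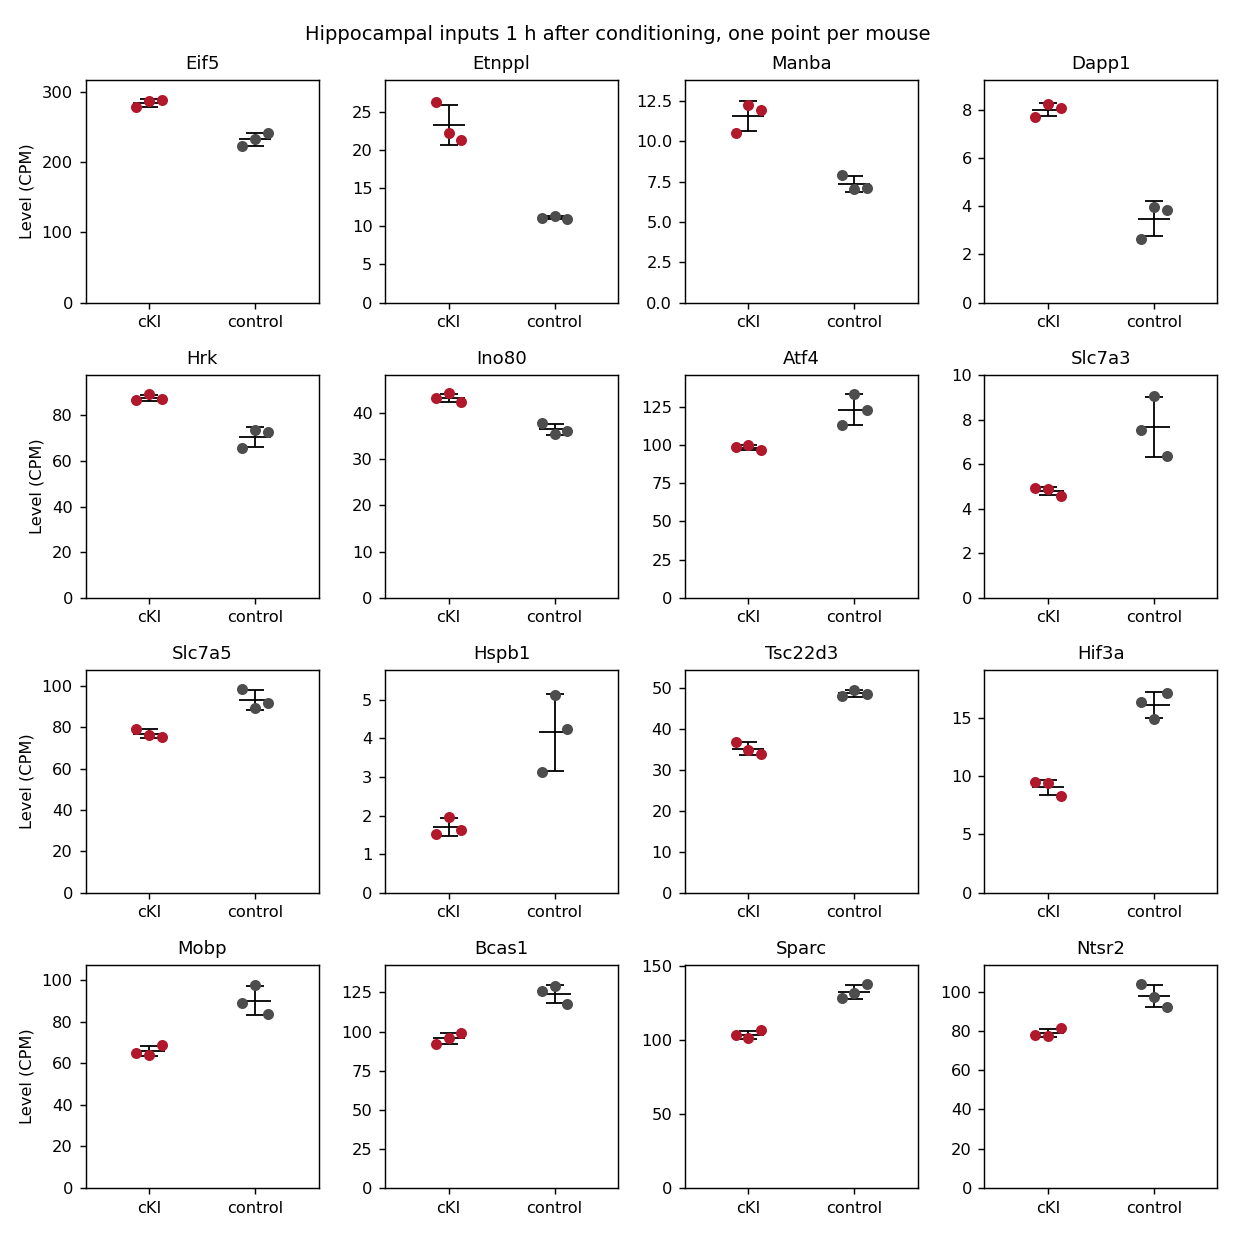
Level in CPM (y axis, from 0) of 16 called genes in the 3 cKI mice (left, red) and the 3 control mice (right, grey) 1 h after conditioning; points are mice and bars are mean ± SD. In every panel the groups do not overlap, and Etnppl is at 21.3 to 26.3 CPM in cKI and 10.99 to 11.33 CPM in control.

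The other decreases included genes of transport, signalling and metabolism. Mfsd2a, a lipid transporter of the blood-brain barrier, was at 19.9, 18.7 and 20.9 CPM in cKI and 34.5, 28.8 and 32.9 CPM in control, and fell by 0.69 (SE 0.10, edgeR adjusted p 0.018). Fzd2, a Wnt receptor gene, was at 9.21, 8.68 and 9.71 CPM in cKI and 15.6, 14.2 and 14.97 CPM in control, and fell by 0.70 (SE 0.10, edgeR adjusted p 0.018). In both genes the groups did not overlap, as in 24.6% of all genes, and both calls were lost in 4 of 12 omissions. Nxn, an oxidoreductase of the thioredoxin family, and Paqr7, a membrane progestin receptor gene, fell by 0.55 and 0.53. Tmem163, a zinc transporter gene, fell by 0.45. Nxn, Paqr7 and Tmem163 lost their calls in 10, 9 and 5 of 12 omissions. Nefm, the medium neurofilament gene, was at 209, 211 and 203 CPM in cKI and 247, 259 and 244 CPM in control and fell by 0.27, a call lost in 4 omissions. Nefm was picked after its values were seen.

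Genes of energy supply shifted little, though most of them in one direction. Of 74 nuclear genes of oxidative phosphorylation 0 were called, and 72 lay below 0 with a median of -0.10. At an unadjusted p under 0.05, 10 were lower and 0 higher, against 5.26% and 4.17% of all genes. With only the 6 libraries in the fit 9 of them were called lower, against 1.81% of all genes. DESeq2 called 1 of them lower, and 112 of 14465 genes in all. Atp5g1, a subunit gene of the ATP synthase ring, was at 61.3, 60.1 and 60.3 CPM in cKI and 69.6, 69.7 and 69.6 CPM in control (log2 -0.20, SE 0.05, edgeR adjusted p 0.113). Cytosolic ribosomal protein genes had 0 calls of 74 by edgeR or DESeq2, 1 lower at an unadjusted p under 0.05 and a median of -0.06. Synaptic plasticity genes had 0 calls of 44 by either tool, 2 higher at an unadjusted p under 0.05 and a median of 0.04. On the 6 libraries alone 6 of the 44 were called higher and 0 lower, against 1.53% and 1.81% of all genes. The sums of the 44 did not overlap, at 25976 to 26352 CPM in cKI and 24875 to 25586 CPM in control. Aminoacyl-tRNA synthetases, several of which ATF4 induces, had 0 calls of 40 by either tool, a median of -0.04, and 5 lower and 0 higher at an unadjusted p under 0.05.

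The same genotypes were compared in 6 naive mice, whose levels do not enter the 1 h fold changes but whose spread enters the 1 h test. The naive comparison called 148 of 14471 genes (1.02%), 56 higher (0.387%) and 92 lower (0.636%). Of the 41 genes called at 1 h, 20 were called in naive mice too, 18 in the same direction. The sign was shared for 35 of 41 (85.4%), against 67.7% of all genes. The naive cKI libraries and control replicates 1 and 2 were in lane 4, and control replicate 3 in lane 5. Within lane 4 alone, 80 genes were called (0.553%), 26 higher (0.18%) and 54 lower (0.373%), and 13 of the 41 were called in the same direction and 2 in the opposite one. There 29 of the 41 had an unadjusted p under 0.05 in the same direction (70.7%), against 17.6% of all genes. Atf4 was at 94.9, 91.2 and 94.6 CPM in naive cKI and 113, 126 and 114 CPM in naive control (log2 -0.33, SE 0.06, edgeR adjusted p 0.023). Eif2s1 was called in naive mice, at 45.3, 39.99 and 44.8 CPM in cKI and 33.2, 35.8 and 36.5 CPM in control (log2 0.30, SE 0.06, edgeR adjusted p 0.024). Slc7a5 was at 88.4, 81.5 and 89.9 CPM in naive cKI and 83.7, 84.6 and 85.9 CPM in naive control, with overlapping groups (log2 0.03, SE 0.05).

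Whether the genotype difference at 1 h differed from that in naive mice was tested as an interaction, and 5 of 14471 genes passed (0.0346%), 1 above 0 (0.00691%) and 4 below 0 (0.0276%). Hif3a was at 15.04, 14.2 and 15.3 CPM in naive cKI and 7.99, 7.07 and 7.56 CPM in naive control, the reverse of its order at 1 h. The difference of the log2 fold changes was -1.81 (SE 0.12, edgeR adjusted p 1.3e-05). Nnt, the mitochondrial nicotinamide nucleotide transhydrogenase, was at 28.97, 30.2 and 27.9 CPM in cKI and 33.0, 40.1 and 40.6 CPM in control at 1 h. In naive mice it was at 28.3, 28.4 and 27.9 CPM in cKI and 20.7, 20.2 and 19.7 CPM in control. Its levels in cKI were alike in the 2 states, and its controls lay on either side of them. Etnppl was at 26.4, 19.8 and 26.6 CPM in naive cKI and 25.7, 24.2 and 24.4 CPM in naive control, and only the controls at 1 h stood apart from the other 3 groups. Tsc22d3 was at 33.96, 35.3 and 34.6 CPM in naive cKI and 31.3, 36.3 and 28.6 CPM in naive control, and its interaction of -0.58 did not pass (edgeR adjusted p 0.11).

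**Figure D5:**
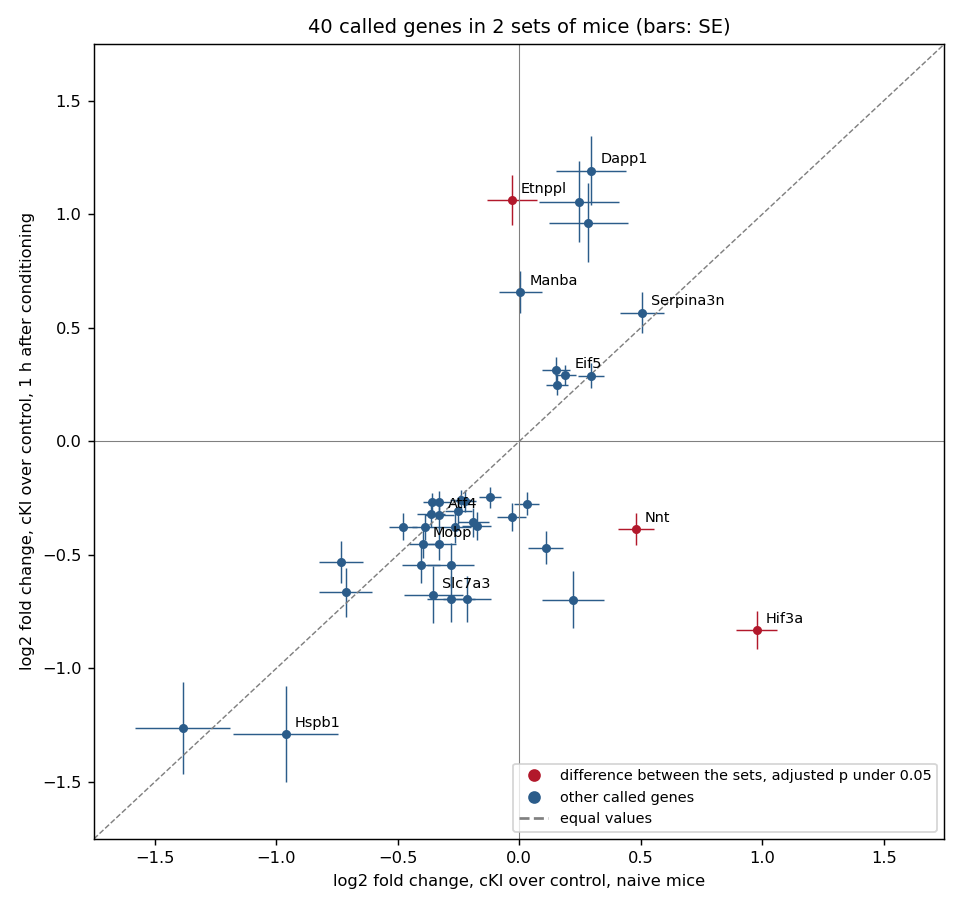
Log2 fold change of cKI over control in naive mice (x axis) and 1 h after conditioning (y axis), with SE bars, for the 40 called genes other than Gm10073; red marks genes whose difference between the 2 states had an edgeR adjusted p under 0.05 and the dashed line marks equal values. Hif3a lies at 0.98 in naive mice and -0.83 at 1 h, and Etnppl at -0.03 and 1.06, while Atf4 and Mobp lie near the line.

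Pulldowns of the same 6 mice gave values for 37 of the 41 genes in RNA bound to tagged ribosomes. Their lanes do not coincide with genotype, since cKI replicate 1 was in lane 5 and the other 5 pulldowns were in lane 6. The pulldown comparison called 9 of 12750 genes (0.0706%), 6 higher (0.0471%) and 3 lower (0.0235%). Within lane 6 alone it called 6 (0.0471%), 4 higher (0.0314%) and 2 lower (0.0157%). Gm10073, Manba and Eif5 were higher and called in both. Eif5 was at 266, 280 and 276 CPM in cKI pulldowns and 213, 212 and 214 CPM in control pulldowns (log2 0.36, edgeR adjusted p 0.038). Manba was at 5.40, 6.42 and 6.30 CPM in cKI pulldowns and 2.19, 1.99 and 1.70 CPM in control pulldowns (log2 1.62, edgeR adjusted p 0.001). The genotypes did not overlap in either gene, and the share of all genes without overlap was not computed for pulldowns. Gm10073 had no counts in the control pulldowns and was at 3.21, 3.41 and 4.46 CPM in cKI pulldowns. Atf4 was at 103, 131 and 115 CPM in cKI pulldowns and 136, 158 and 148 CPM in control pulldowns (log2 -0.34, edgeR adjusted p 0.51). Etnppl was low in pulldowns, at 1.603, 1.52 and 1.52 CPM in cKI and 0.512, 0.703 and 0.4996 CPM in control (log2 1.43, edgeR adjusted p 0.057).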

How the data were processed

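The authors deposited a table of raw counts per gene for 24 libraries, with 51733 genes, and the counts are whole numbers, per the values of the deposited table. Libraries were made with a directional poly(A) kit, 2 × 50 bases, per the labels' protocols. Trimming and mapping tools were cutadapt and Bowtie, with DESeq2 also listed, per the submitters' processing notes. Counting tool, build and strand setting: not given in the sources used here. Symbols in capitals were matched to mouse symbols by a gene name table (47598, 92%), by RefSeq (31) or by its synonyms (370). A further 26 had been turned into dates. No column was left out.

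CPM were computed from the counts after TMM scaling. The 12 inputs were fitted with 1 mean per group in R 4.3.3 with edgeR 4.0.16 (robust quasi-likelihood test) and Benjamini-Hochberg adjustment over 14471 genes, and DESeq2 1.42.0 was an alternative. Mean log2 CPM of 2 or more, no overlap between groups and no clone name were required for the genes named by size, up to 12 in each direction (8 rose, 12 fell). The rule adds the 3 members of smallest p of each of 36 lists (946 genes, 904 tested), called members and 13 set genes. Members and lists were chosen with earlier results of these data known. Replicates came from separate mice. Totals of 28810676 to 34726721 counts make 1 count 0.0288 to 0.0347 CPM, and intervals cover counting error only. The test was also run on simulated counts that held no lane effect and no deviating library. That run does not gauge its error rate in these data. The alternatives were other size factors, DESeq2, no filter or filterByExpr, the 6 libraries alone, the replicate number as a block, lane, and each library left out.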

Additional observations from a re-analysis of the deposited data

Results flagged for a closer look

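The genotype difference at 1 h differed from that in naive mice for 5 genes, by a test of the difference itself (edgeR quasi-likelihood interaction, adjusted over 14471 genes). Hif3a had a difference of log2 fold changes of -1.81 (SE 0.12, edgeR adjusted p 1.3e-05), being at -0.83 at 1 h and 0.98 in naive mice. Nnt had a difference of -0.87 (SE 0.10, edgeR adjusted p 0.007), being at -0.39 at 1 h and 0.48 in naive mice. AC154550.1, whose CPM followed those of Nnt in every library, had a difference of -0.86 (SE 0.10, edgeR adjusted p 0.007), being at -0.38 and 0.48. Reads that the counting could place on either of these genes may make them 1 result. Adipor2, an adiponectin receptor gene, had a difference of -0.46 (SE 0.06, edgeR adjusted p 0.019). Adipor2 was at 80.2, 80.2 and 82.2 CPM in cKI and 90.0, 91.5 and 86.6 CPM in control at 1 h, and at 80.0, 78.8 and 83.6 CPM in cKI and 67.7, 62.8 and 64.0 CPM in control in naive mice. Etnppl had a difference of 1.09 (SE 0.15, edgeR adjusted p 0.019), being at 1.06 at 1 h and -0.03 in naive mice. With lane as a covariate 1 interaction passed.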

How the results depend on the processing

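Genes called at 1 h (11 higher, 30 lower) numbered 10 and 34 with DESeq2 size factors, 56 and 112 with the DESeq2 Wald test, 14 and 46 with no filter on low counts and 12 and 34 with filterByExpr. They numbered 221 and 262 on the 6 libraries alone and 1 and 0 with lane as a covariate. Leaving out 1 library gave 2 to 85 higher and 1 to 135 lower. Naive calls (148) were 524 with DESeq2, 131 with lane as a covariate, 80 within lane 4 and 51 to 133 with 1 library left out. Interaction calls (5) were 33 with DESeq2, 1 with lane and 3 to 16 with 1 library left out. Pulldown calls (9) were 44 with DESeq2, 5 with lane, 6 within lane 6 and 4 to 10 with 1 library left out. The cause was not tested. The 41 genes called at 1 h kept their sign with lane as a covariate and in each of the 12 omissions. These fits share libraries with the one that chose the genes, so a kept sign is no separate check.

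Replicate numbers gave no sign of pairing the samples. Same-numbered cKI and control inputs at 1 h had correlations of -0.0428, -0.0554 and 0.0491. Differently numbered ones ran from -0.197 to 0.217. So few values cannot exclude a pairing. With the replicate number as a block, 5 genes were higher and 7 lower at 1 h, 89 were called in naive mice, 4 for the interaction and 8 in pulldowns. At these totals 1 count is 0.0288 to 0.0347 CPM.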
